A study of Danio rerio with 6 samples.

Results

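The 10 photoreceptor genes described here were the rod genes *rho*, *gnat1* and *saga* and the cone genes *opn1sw1*, *opn1sw2*, *opn1mw1*, *opn1lw2*, *gnat2*, *pde6c* and *arr3a*. They were chosen by gene name, as genes of the eye whose RNA in headless bodies could come from eye tissue left on the body, and they were 10 of the 31794 named genes in the transcript tables. They were carried by 17 of the 59810 named transcripts, and the FPKM values of a gene's transcripts, which are fragment numbers scaled by transcript length and by depth, were summed.

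RNA sequencing was performed on 6 pools of 10 zebrafish embryos each, of strain Tab5, at 3 days post fertilization (dpf). The mutant pools were homozygous for the hg129 allele of *zrsr2* (zrsr2hg129/hg129) and were taken from clutches 3, 4 and 7, each from an in-cross of heterozygotes. The WT pools were taken from clutches 12, 13 and 15, each from an in-cross of WT siblings. The hg129 allele is a frameshift deletion made with CRISPR/Cas9, followed as a single line, and *zrsr2* encodes a splicing factor of the minor spliceosome. The heads of all embryos were removed, those of the mutant clutches being used to identify homozygotes, and the bodies were stored for RNA extraction. The 2 genotypes shared no clutch and no type of cross, and the RNA integrity numbers of the WT pools were all above those of the mutant pools. The effects of genotype, parentage and RNA quality therefore cannot be told apart. Since embryos were pooled before extraction, each p-value measures the spread between 3 pools per genotype.

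Photoreceptors detect light with opsins, which are receptors coupled to the G protein transducin. Activated transducin switches on a phosphodiesterase that hydrolyses cyclic GMP and so closes the cyclic nucleotide-gated channels of the outer segment, and opsin kinases and arrestins end the response. Rods and cones use separate genes for most of these steps. The zebrafish retina holds rods and ultraviolet, blue, green and red cones, and the pineal gland on top of the brain holds photoreceptors of its own.

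The aligned sequence came to 8.85 to 9.17 gigabases in the mutant pools and 7.50 to 9.26 gigabases in the WT pools. Of the named genes, 72.3 to 73.2% were above 0 FPKM in the mutant pools and 72.4 to 73.7% in the WT pools. Of all 31794 genes, 18.7% were listed at 0 in every pool and 37.2% had a mean below 0.1 FPKM. A gene can be listed at 0 because the assembly gave its reads to an unnamed transcript: *rps25*, which encodes a ribosomal protein of every cell, was listed at 0 in WT clutch 13 while unnamed transcripts of its locus held its reads. No unnamed transcript overlapped any of the 10 photoreceptor genes on its own strand. The targeted gene *zrsr2* (chr11:12732247-12744082, GRCz11) had 0.513, 0.793 and 1.06 FPKM in mutant clutches 3, 4 and 7, against 1.38, 1.495 and 1.39 FPKM in WT clutches 12, 13 and 15. The groups did not overlap, as for 26.8% of the 19978 genes tested across the genome in this direction. The difference did not pass the threshold (log2 fold change −0.62, SE 0.23, adjusted p = 0.173 by limma with Benjamini-Hochberg adjustment).

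All 10 photoreceptor genes were low in the headless bodies of both genotypes. Only *opn1sw2*, *gnat2* and *pde6c*, all cone genes, were above 0 in all 6 pools, and none of them exceeded 0.268 FPKM in any pool. *opn1sw1*, *opn1lw2* and *arr3a* were listed at 0 in every pool, and *rho*, *gnat1*, *saga* and *opn1mw1* were above 0 in 1 to 3 pools. The summed FPKM of the 10 genes was 0.564, 0.337 and 0.581 in mutant clutches 3, 4 and 7, against 0.211, 0.426 and 0.289 in WT clutches 12, 13 and 15. The 2 genotypes overlapped in this sum, since WT clutch 13 lay above mutant clutch 4. The mean sum was 0.494 ± 0.136 FPKM in mutants and 0.309 ± 0.109 FPKM in WT (SD, n = 3 each), a ratio of 1.60, and no test was made of this sum. In pooled bodies, a difference in the number of cells of one type and a difference in RNA per cell cannot be told apart.

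**Figure D1:**
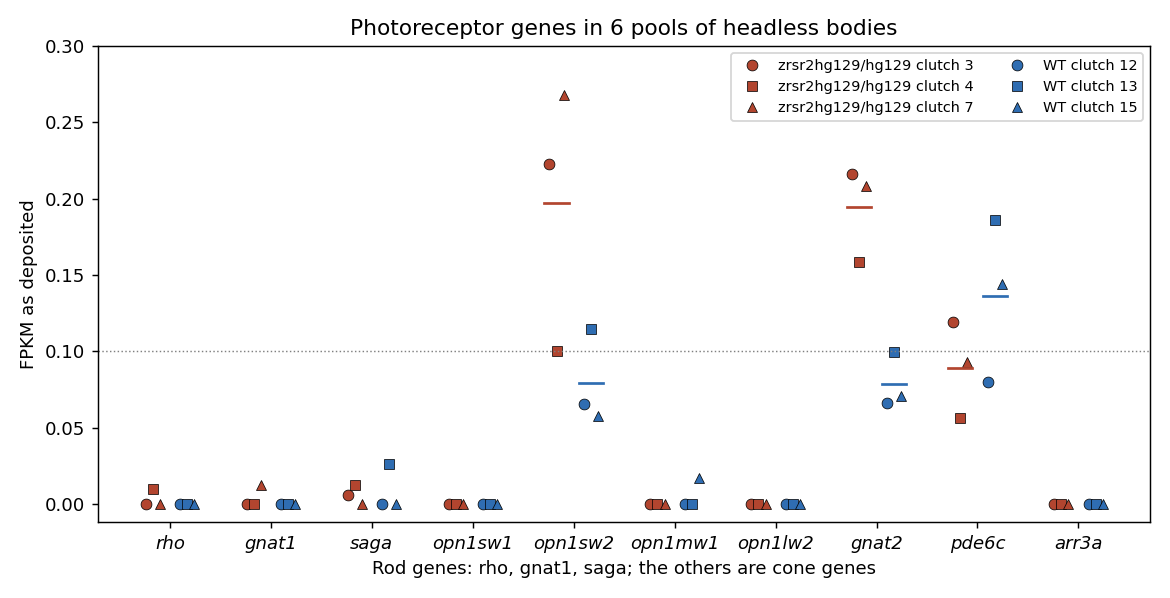
FPKM of each of the 10 photoreceptor genes in the 3 zrsr2hg129/hg129 pools and the 3 WT pools, with 1 symbol per pool, a short line at the group mean for the 3 genes above 0 in every pool, and a dotted line at 0.1 FPKM. Only *opn1sw2*, *gnat2* and *pde6c* stand above 0 in all 6 pools, and the mutant pools lie above all WT pools only for *gnat2*.

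The rod genes made up little of this sum. Their summed FPKM was 0.00594, 0.0220 and 0.0122 in mutant clutches 3, 4 and 7, against 0, 0.0259 and 0 in WT clutches 12, 13 and 15. The cone genes summed to 0.558, 0.315 and 0.569 FPKM in the mutant pools and 0.211, 0.400 and 0.289 FPKM in the WT pools, in the same order of clutches. Nearly all of the summed FPKM of the 10 genes was therefore that of the cone genes in each pool. The cells it came from were not tested.

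*rho* (chr8:54076195-54077740, minus strand, a single exon) encodes rhodopsin, the light receptor of rods and one of the most abundant proteins of the vertebrate eye. It had 0, 0.00949 and 0 FPKM in mutant clutches 3, 4 and 7, against 0 in each WT pool. The value in mutant clutch 4 came from 160 aligned bases, about the length of 1 read if reads were 150 bases long. *gnat1* (chr6:42918933-42930302, plus strand, 9 exons), the alpha subunit of rod transducin, was above 0 only in mutant clutch 7, with 0.0122 FPKM from 255 bases. *saga* (chr2:5480125-5505094, minus strand, 16 exons in its longest transcript), which encodes a rod arrestin, had 0.00594, 0.0125 and 0 FPKM in mutant clutches 3, 4 and 7, against 0, 0.0259 and 0 FPKM in WT clutches 12, 13 and 15. These values rested on 219 and 463 bases in the mutant pools and 981 bases in WT clutch 13. No rod gene was detected in more than 3 of the 6 pools, and the groups overlapped for all 3.

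The cone opsins differed among themselves. *opn1sw1* (chr4:13577665-13580348, minus strand, 5 exons), the ultraviolet opsin, was listed at 0 in every pool, where 3 reads of 150 bases would have given at most 0.0278 FPKM. *opn1lw2* (chr11:25481046-25483206, plus strand), a red opsin with 4 annotated transcripts, was also listed at 0 in every pool, where 3 reads would have given at most 0.0301 FPKM. *opn1mw1* (chr6:41181869-41183823, plus strand, 5 exons), a green opsin, was above 0 only in WT clutch 15, with 0.0168 FPKM from 241 bases. The blue opsin was the only 1 of the 4 cone opsins seen in every pool.

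*opn1sw2* (chr11:25459697-25475403, plus strand) encodes the blue opsin. It had 0.223, 0.1003 and 0.268 FPKM in mutant clutches 3, 4 and 7, against 0.0657, 0.115 and 0.0574 FPKM in WT clutches 12, 13 and 15. Mutant clutch 4 lay below WT clutch 13, so that the groups overlapped. Its mean was 0.197 ± 0.0868 FPKM in mutants and 0.0792 ± 0.0308 FPKM in WT (SD, n = 3 each), a ratio of 2.49. On the log2(FPKM + 0.1) scale, which understates the change of low genes, the fold change was 0.82 (SE 0.33, 95% interval 0.02 to 1.62), with an adjusted p of 0.208 by limma. The difference did not pass the threshold, although its unadjusted p was 0.0457.

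*gnat2* (chr8:25225590-25247284, minus strand), the alpha subunit of cone transducin, was the only 1 of the 10 genes whose genotypes did not overlap. It had 0.216, 0.159 and 0.208 FPKM in mutant clutches 3, 4 and 7, against 0.0660, 0.0994 and 0.0709 FPKM in WT clutches 12, 13 and 15. Its mean was 0.194 ± 0.0311 FPKM in mutants and 0.0788 ± 0.0180 FPKM in WT (SD, n = 3 each), a ratio of 2.47. The aligned bases were 5105, 3656 and 4799 in the mutant pools and 1443, 1767 and 1401 in the WT pools, so that each pool held more than a few reads. The log2 fold change was 0.84 (SE 0.25, 95% interval 0.25 to 1.43, unadjusted p = 0.0123), but the adjusted p was 0.110 by limma and the difference did not pass the threshold. Of all 19978 genes tested, 32.8% had groups that did not overlap, 6.05% with every mutant pool above every WT pool and 26.8% with every mutant pool below. After scaling of the pools by median-of-ratios factors, under which *gnat2* also did not overlap, these shares were 30.6%, 14.6% and 16%.

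*pde6c* (chr12:5129245-5154099, plus strand, 22 exons), the catalytic subunit of the cone phosphodiesterase, ran the other way in its means. It had 0.119, 0.0560 and 0.0928 FPKM in mutant clutches 3, 4 and 7, against 0.0796, 0.186 and 0.144 FPKM in WT clutches 12, 13 and 15. The groups overlapped, and the mean was 0.0893 ± 0.0317 FPKM in mutants and 0.136 ± 0.0536 FPKM in WT (SD, n = 3 each). The log2 fold change was −0.19 (SE 0.30, 95% interval −0.91 to 0.53), with an adjusted p of 0.743 by limma. *arr3a* (chr10:26800213-26811397, plus strand, 16 exons), which encodes a cone arrestin, was listed at 0 in all 6 pools, where 3 reads would have given at most 0.0287 FPKM. Thus the 3 cone genes detected in every pool did not share the sign of the log2 fold change, but the interval of *pde6c* held both signs.

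The order of the pools also differed between these 3 genes. *opn1sw2* was highest in mutant clutch 7 and lowest in WT clutch 15, *gnat2* was highest in mutant clutch 3 and lowest in WT clutch 12, and *pde6c* was highest in WT clutch 13 and lowest in mutant clutch 4. By mean FPKM over all pools, *opn1sw2* stood above 39.9%, *gnat2* above 39.8% and *pde6c* above 38.2% of all named genes. FPKM is set per length of transcript, and the means of these 3 genes lay within their spread over pools of each other. Below them, *saga*, *opn1mw1*, *gnat1* and *rho* stood above 22.9%, 20.4%, 20.01% and 19.6% of all genes, an order set by 1 to 3 pools above 0.

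The transcripts behind the 2 genes with the largest ratios were then examined one by one. For *opn1sw2*, the transcript ENSDART00000011178 (5 exons, 1413 bases) had 0.0129, 0.1003 and 0.268 FPKM in mutant clutches 3, 4 and 7, against 0.0657, 0.00959 and 0.0574 FPKM in WT clutches 12, 13 and 15. A longer-ranging model, ENSDART00000161481 (6 exons, 1017 bases), took 0.210 FPKM in mutant clutch 3 and 0.105 FPKM in WT clutch 13 and was listed at 0 in the other 4 pools. It is this model that carried most of the *opn1sw2* signal in mutant clutch 3 and WT clutch 13. Its first exons extend into the locus of *hcfc1a*, which lies on the opposite strand and was expressed at 4.32 to 5.55 FPKM in mutants and 5.74 to 6.40 FPKM in WT. The library kit keeps strand, but the strand setting of the counting is not given in the sources used here, and the part of *hcfc1a* reads in this value was not tested. For *gnat2*, the main transcript ENSDART00000062363 (9 exons, 2170 bases) had 0.216, 0.153 and 0.208 FPKM in mutant clutches 3, 4 and 7, against 0.0572, 0.0587 and 0.0709 FPKM in WT clutches 12, 13 and 15. Every mutant pool exceeded every WT pool in it, but the share of all transcripts that lay apart in this way was not computed. A shorter model, ENSDART00000132697 (6 exons, 760 bases), was above 0 only in WT clutch 13, at 0.0312 FPKM, and reaches the locus of *ampd2b* on the opposite strand. With only the longest transcript of each gene, the log2 fold change was 0.96 for *gnat2* (adjusted p = 0.0838 by limma), 0.58 for *opn1sw2* (adjusted p = 0.513) and −0.19 for *pde6c*, an alternative chosen after the data were seen.

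**Figure D2:**
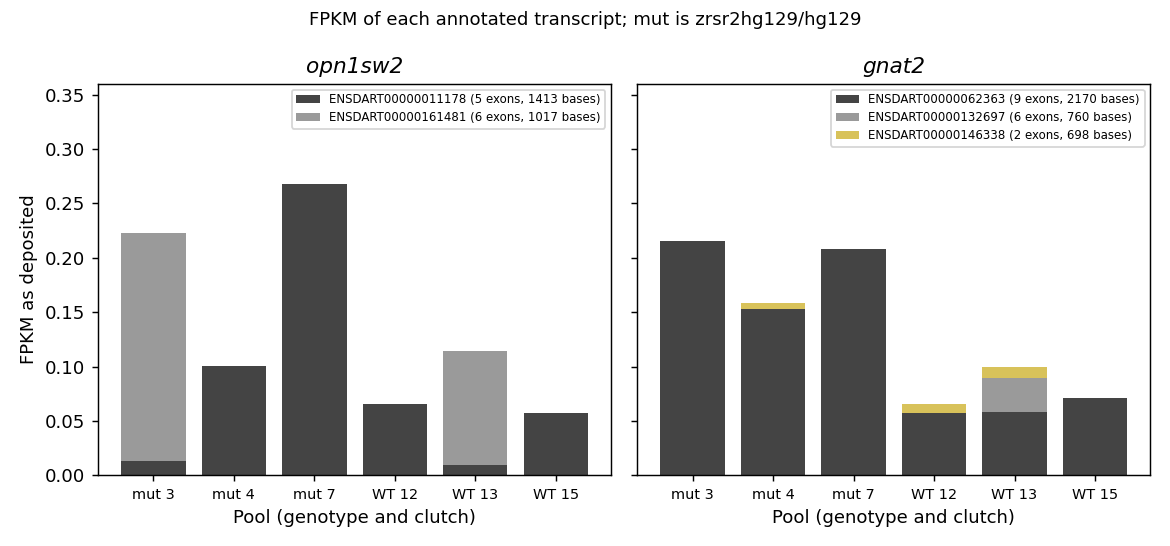
FPKM of each annotated transcript of *opn1sw2* and *gnat2*, stacked, in the 3 zrsr2hg129/hg129 pools (mut, by clutch) and the 3 WT pools. The 6-exon model of *opn1sw2* appears in mutant clutch 3 and WT clutch 13 alone, whereas the 9-exon transcript of *gnat2* makes up most of its signal in every pool.

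Across the genome, 559 of 19978 genes with a mean of at least 0.1 FPKM were called between the genotypes, which took an adjusted p under 0.05 together with a log2 fold change of 1 or more in size. These were 2.8% of the genes tested, with 0.886% higher and 1.91% lower in mutants. Of the 10 photoreceptor genes, 3 passed the filter on low values and none was called by limma in either direction. *opn1sw2* and *gnat2* had an unadjusted p below 0.05, as did 23% of all genes tested, and limma-voom on estimated reads also called none of the 3 and had 1 below 0.05. The other 7 genes were not in this comparison, and 3 of them had no signal at all. For *saga*, above 0 in 3 pools, an exact permutation test over pools gave p = 1, where 3 pools against 3 cannot go below 0.1. For *rho*, *gnat1* and *opn1mw1*, each above 0 in 1 pool, this test can decide nothing. Every split of the pools gives a difference of the same size. Data were also simulated at the means and spreads of all genes tested, with changes added on the log2(FPKM + 0.1) scale. For low genes, such a change stands for a larger change in FPKM. Among genes drawn at random from those at 0.1 to 0.5 FPKM, 10 of 50 with a change of 1.5 were called, and 35 of 50 with a change of 3. The 3 photoreceptor genes tested lay near the bottom of this range, at means of 0.113 to 0.138 FPKM, and the other 7 below it. These shares therefore may not hold for the 10 genes.

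Copies of the 10 genes could share reads with them. *opn1mw2*, *opn1mw3* and *opn1mw4* lie in tandem next to *opn1mw1* on chromosome 6 and encode green opsins, and *opn1lw1* encodes a red opsin next to *opn1lw2* on chromosome 11. *opn1mw2* had 0.0608, 0 and 0.0617 FPKM in mutant clutches 3, 4 and 7, against 0.0412, 0 and 0.0142 FPKM in WT clutches 12, 13 and 15, and *opn1mw3* was above 0 only in WT clutch 13, with 0.0144 FPKM. *opn1mw4* and *opn1lw1* were listed at 0 in all pools. How reads shared by such copies were split is not given in the sources used here, so the values of single green opsin genes are uncertain. Of the second arrestin copies, *arr3b* had 0.176, 0.0535 and 0.104 FPKM in mutants and 0.194, 0.151 and 0.180 FPKM in WT (log2 fold change −0.28, adjusted p = 0.629 by limma). With unnamed transcripts of its locus added, the log2 fold change was −0.96 (adjusted p = 0.0452), still short of the size needed for a call. In contrast to *arr3a*, it was above 0 in all 6 pools. *sagb* was the highest arrestin gene, with 1.24, 0.631 and 0.581 FPKM in mutants and 0.690, 0.921 and 3.44 FPKM in WT (log2 fold change −0.49, adjusted p = 0.660). WT clutch 15 set its sign, and without that pool the log2 fold change was 0.15.

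A list of 82 other photoreceptor genes (the 6 copies above, other phototransduction genes, genes of the outer segment and visual cycle, and photoreceptor transcription factors) held genes as low as the 10 and a few well above them, up to *rdh8a* with a mean of 6.35 FPKM over all pools. The tables held 76 of them, of which 13 were listed at 0 in all pools and 16 passed the filter. Among these 16, 1 gene was called higher in mutants and none lower, by limma as by limma-voom, beside 0.886% and 1.91% of all genes tested. Of the 16, 5 had an unadjusted p below 0.05, beside 23% of all genes, and the median log2 fold change was 0.09, against 0.01 over all genes tested. The summed FPKM of the 76 genes was 15.3, 13.4 and 14.4 in mutant clutches 3, 4 and 7, against 19.8, 19.5 and 22.5 in WT clutches 12, 13 and 15. This sum was lower in every mutant pool than in any WT pool, unlike the sum of the 10 genes, which overlapped. It was weighted to its highest genes and did not stand for the whole list. *rdh8a* averaged 4.701 FPKM in mutants and 8.01 FPKM in WT, and *neurod1* 4.01 and 6.03 FPKM. *sagb* also had the lower mean in mutants. Of the 16 genes tested, 9 had a positive log2 fold change and 7 a negative one.

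The gene called was *grk7b* (chr18:41740742-41754020), which encodes a cone opsin kinase. It had 0.577, 0.647 and 0.427 FPKM in mutant clutches 3, 4 and 7, against 0.144, 0.0768 and 0.159 FPKM in WT clutches 12, 13 and 15. Every mutant pool lay well above every WT pool, and 6.05% of all genes tested had every mutant pool higher. The mean was 0.550 ± 0.113 FPKM in mutants and 0.127 ± 0.0439 FPKM in WT (SD, n = 3 each). The log2 fold change was 1.68 (SE 0.26, 95% interval 1.05 to 2.31, adjusted p = 0.0279 by limma). The call was lost when any 1 of the 6 pools was left out, with an adjusted p between 0.0577 and 0.1003 and a log2 fold change between 1.51 and 1.85. With a pseudocount of 1 it failed on size alone, at a log2 fold change of 0.51 and an adjusted p of 0.0300 by limma. On that scale a gene this low cannot reach a log2 fold change of 1, so that setting cannot decide the call.

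Other phototransduction genes did not pass the threshold. *rgs9b*, a homologue of the GTPase-activating protein that switches transducin off, averaged 0.530 ± 0.0352 FPKM in mutants and 0.939 ± 0.0967 FPKM in WT (log2 fold change −0.52, adjusted p = 0.125 by limma). *pde6a*, a catalytic subunit of the rod phosphodiesterase, averaged 0.302 ± 0.0912 FPKM in mutants and 0.276 ± 0.0366 FPKM in WT (adjusted p = 0.575). Thus this rod gene was above 0.2 FPKM in every pool while *rho* was at or near 0. *gnb3a*, a transducin beta subunit named here after its values were seen, had 0, 0.0740 and 0.248 FPKM in mutant clutches 3, 4 and 7, against 0.568, 0.287 and 0.443 FPKM in WT clutches 12, 13 and 15. Its groups did not overlap, as for 26.8% of all genes tested in this direction, and its log2 fold change of −1.40 did not pass the threshold (SE 0.50, adjusted p = 0.165). Under the filter, *pde6b*, another catalytic subunit of the rod phosphodiesterase, and *grk1a*, a rhodopsin kinase, also named after their values were seen, lay the other way without overlap. *pde6b* had 0.145, 0.163 and 0.0576 FPKM in mutant clutches 3, 4 and 7, against 0.0118, 0.0574 and 0.00422 FPKM in WT clutches 12, 13 and 15. *grk1a* had 0.170, 0.0571 and 0.170 FPKM in the mutant pools, against 0.0436, 0.0187 and 0.0190 FPKM in the WT pools. *cngb1a*, a cyclic nucleotide-gated channel gene also under the filter, was lower in mutants without overlap. It was listed at 0 in the mutant pools, against 0.0359, 0.0439 and 0.105 FPKM in WT clutches 12, 13 and 15. Of all genes tested, 6.05% had every mutant pool higher and 26.8% every mutant pool lower, but genes under the filter were not tested.

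Of the outer segment and visual cycle genes, *rdh8a* and *rdh8b*, homologues of a retinol dehydrogenase of the outer segment, were the highest. *rdh8a* averaged 4.701 ± 1.504 FPKM in mutants and 8.01 ± 0.373 FPKM in WT (log2 fold change −0.59, adjusted p = 0.271 by limma), and *rdh8b* averaged 0.542 ± 0.0405 FPKM in mutants and 0.305 ± 0.0407 FPKM in WT (log2 fold change 0.85, adjusted p = 0.0739). The groups of *rdh8b* did not overlap, with the mutants higher, as for 6.05% of all genes tested. Those of *rdh8a*, with the mutants lower, did not overlap as deposited, as for 26.8% of all genes tested, but did after scaling. *abca4a*, the retinoid transporter of the outer segment, averaged 0.199 ± 0.0579 FPKM in mutants and 0.214 ± 0.0446 FPKM in WT (log2 fold change 0.06, adjusted p = 0.898). Its fitted sign changed with the scaling between pools and with the pools used.

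The transcription factors that specify photoreceptors were mostly at or near 0. *nrl* and *otx5* were listed at 0 in all pools, *crx* had 0, 0.0324 and 0.0177 FPKM in mutants and 0, 0.0147 and 0 FPKM in WT, and *nr2e3* had 0.0592, 0.0341 and 0.0412 FPKM in mutants and 0.0400, 0 and 0 FPKM in WT. *neurod1*, which also acts in neurons and endocrine cells outside the eye, averaged 4.01 ± 0.821 FPKM in mutants and 6.03 ± 0.213 FPKM in WT (log2 fold change −0.38, adjusted p = 0.180 by limma). It was the only regulator of the list above 0 in all pools.

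**Figure D3:**
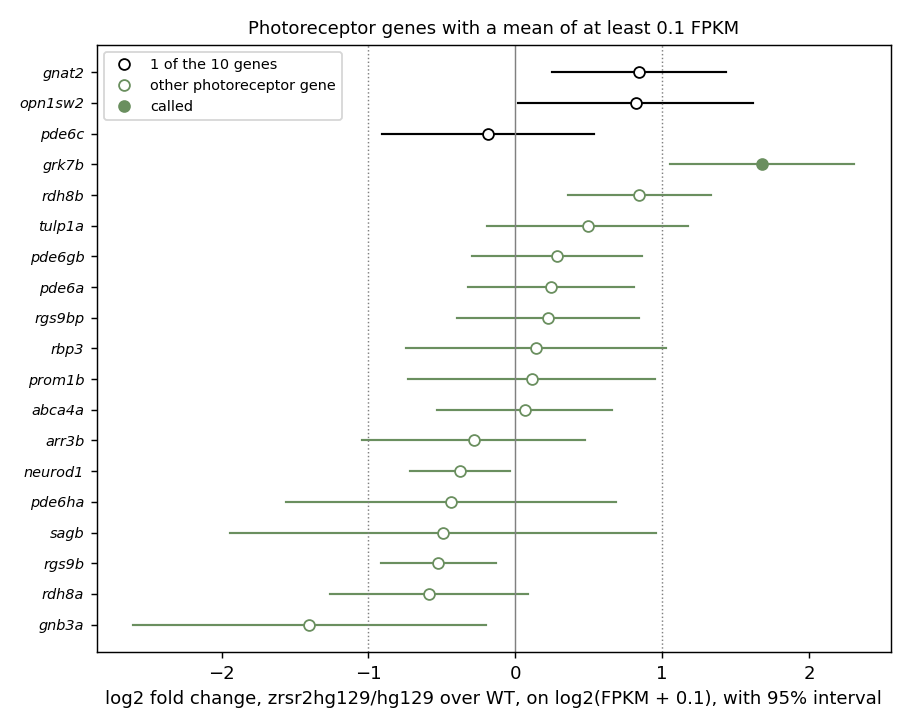
Log2 fold change with its 95% interval, zrsr2hg129/hg129 over WT, of the 3 photoreceptor genes and the 16 other photoreceptor genes with a mean of at least 0.1 FPKM, with dotted lines at −1 and 1. Only *grk7b*, the filled point at 1.68, was called, and *gnat2* (0.84) and *opn1sw2* (0.82) lie on the same side with intervals that reach 0.25 and 0.02.

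Markers of other tissues of the head were measured in the same pools, to set beside the photoreceptor genes. The pineal list (8 genes) summed to 0.9998 to 1.37 FPKM in mutants and 1.16 to 2.21 FPKM in WT, and 2 of its genes were listed at 0 in all pools. *exorh* (chr8:54302700-54304381), the rhodopsin-like opsin of the pineal gland, had 0.426, 0.256 and 0.370 FPKM in mutant clutches 3, 4 and 7, against 0.218, 0.267 and 0.346 FPKM in WT clutches 12, 13 and 15. It was thus above 0 in all 6 pools, in contrast to *rho*, and its groups overlapped (log2 fold change 0.43, SE 0.27, adjusted p = 0.384 by limma). *asmt2*, a homologue of the last enzyme of melatonin synthesis, averaged 0.597 ± 0.117 FPKM in mutants and 1.10 ± 0.492 FPKM in WT (adjusted p = 0.377). The part of pineal cells in the values of the 10 genes was not tested.

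The retinal pigment epithelium, which regenerates the chromophore of opsins, was represented by 7 genes, which summed to 8.77 to 15.3 FPKM in mutants and 15.3 to 15.6 FPKM in WT. Most of this was *rgrb*, a retinal G protein-coupled receptor homologue, with 9.94 ± 2.85 FPKM in mutants and 10.9 ± 0.151 FPKM in WT (log2 fold change 0.05, adjusted p = 0.924 by limma, and −0.17 without scaling). *lrata*, a homologue of the enzyme that esterifies retinol, averaged 1.07 ± 0.306 FPKM in mutants and 1.44 ± 0.381 FPKM in WT (adjusted p = 0.693). Under the filter were 2 genes, named here after their values were seen. *rpe65a* was listed at 0 in the mutant pools, against 0.0575, 0.0173 and 0.130 FPKM in WT clutches 12, 13 and 15. Of all genes tested, 26.8% had every mutant pool lower, but *rpe65a* itself was not tested. *rlbp1b* had 0.0869, 0 and 0.0536 FPKM in the mutant pools and 0.0327, 0 and 0.0507 FPKM in the WT pools. The sum of this list was weighted to *rgrb*, and the cells it came from were not tested. Of the 5 genes tested, 1 had a positive log2 fold change and 4 a negative one. The largest in size was that of *bco1l*, also named after its values were seen. It averaged 0.133 ± 0.0357 FPKM in mutants and 0.759 ± 0.339 FPKM in WT, without overlap, as for 26.8% of all genes tested. It was not called (log2 fold change −1.65, SE 0.35, adjusted p = 0.0546 by limma). The copy of *rgrb*, *rgra* (chr13:29446226-29455859) had 0.757, 0.575 and 0.527 FPKM in mutant clutches 3, 4 and 7, against 1.91, 1.63 and 1.95 FPKM in WT clutches 12, 13 and 15. All mutant pools lay below all WT pools, as for 26.8% of all genes tested. *rgra* was called lower (log2 fold change −1.23, SE 0.21, adjusted p = 0.0365 by limma). The call was lost without mutant clutch 4, mutant clutch 7 or any 1 of the WT pools, with no filter on low values and with a pseudocount of 1. With that pseudocount it failed on size alone, at a log2 fold change of −0.69 and an adjusted p of 0.0343 by limma.

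The inner retina and Müller glia list (18 genes) summed to 7.05 to 7.77 FPKM in mutants and 8.07 to 9.10 FPKM in WT. Its called gene was *rorb* (chr5:25366677-25406807), a nuclear receptor of retina and brain, with 0.113, 0.0728 and 0.0811 FPKM in mutant clutches 3, 4 and 7, against 0.371, 0.467 and 0.670 FPKM in WT clutches 12, 13 and 15. The groups stood well apart, and 26.8% of all genes tested had every mutant pool below every WT pool. *rorb* was called lower (log2 fold change −1.50, SE 0.26, adjusted p = 0.0387 by limma). The call was lost when any 1 pool was left out, with an adjusted p between 0.0531 and 0.126, with limma-voom and with a pseudocount of 1. With that pseudocount it failed on size alone, at a log2 fold change of −0.41 and an adjusted p of 0.0474 by limma. The genes with the highest level in this list, *prdm1a* (3.00 ± 0.394 FPKM in mutants and 2.93 ± 0.448 FPKM in WT) and *gng13b* (1.74 ± 0.136 FPKM in mutants and 2.33 ± 0.171 FPKM in WT), were not called. The sum of the inner retina list was weighted to these genes, and the cells it came from were not tested. Of the 18 genes, 2 were listed at 0 in all pools. The lens list (26 genes) summed to 1.54 to 2.41 FPKM in mutants and 2.33 to 2.79 FPKM in WT. Of its 7 genes tested, 2 had an unadjusted p below 0.05 by limma, beside 23% of all genes tested. Its highest genes were the crystallins *crygn1* (0.491 ± 0.0723 FPKM in mutants and 0.467 ± 0.199 FPKM in WT, adjusted p = 0.589) and *crybb1* (0.220, 0.0507 and 0 FPKM in mutants and 0.297, 0.650 and 0.501 FPKM in WT, adjusted p = 0.136). The 2 genes with an unadjusted p below 0.05 by limma were *crybb1*, lower in mutants, and *crybb3*, higher. *crybb3* was named here after its values were seen. It had 0.177, 0.175 and 0.211 FPKM in mutants and 0, 0.129 and 0.0958 FPKM in WT (adjusted p = 0.190 by limma). Of the 7 lens genes tested, 3 had a positive log2 fold change and 4 a negative one.

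Over all head markers, which also covered forebrain and midbrain, pituitary, olfactory tissue, ear and hindbrain, 51 of 111 genes passed the filter. None was called higher, by limma or by limma-voom, and 2 were called lower in mutants by limma, beside 0.886% and 1.91% of all genes. Beside 23% of all genes tested, 11 of the 51 had an unadjusted p below 0.05 by limma. The median log2 fold change was −0.06. The sums of the pigment epithelium and inner retina lists were lower in every mutant pool than in the WT pools as deposited. Of all genes tested, 26.8% also had every mutant pool lower as deposited. For the pigment epithelium of mutant clutch 3, the gap was less than 0.1 FPKM. After scaling, the genotypes overlapped in both sums. Both were weighted to their highest genes, and the cells they came from were not tested. The sum of the other photoreceptor genes, weighted to its highest genes, was lower in every mutant pool as deposited. By contrast, the sum of the 10 photoreceptor genes overlapped and had the higher mean in mutants. After scaling, the mean sums were 0.539 FPKM in mutants and 0.285 FPKM in WT for the 10 genes, 15.6 and 19.1 FPKM for the other photoreceptor genes, 13.5 and 14.3 FPKM for the pigment epithelium, and 7.97 and 7.83 FPKM for the inner retina. WT clutch 13 stood apart on several brain markers, named here after their values were seen. *otx2b*, a transcription factor of forebrain and midbrain, had 0.136, 0.248 and 0.351 FPKM in mutant clutches 3, 4 and 7, against 0.216, 1.59 and 0.576 FPKM in WT clutches 12, 13 and 15. *en2b*, of the midbrain and hindbrain boundary, was listed at 0 in the 3 mutant pools, against 0.196, 1.24 and 0.133 FPKM in WT. Every WT pool thus exceeded every mutant pool in *en2b*, as for 26.8% of all genes tested. No gene of the forebrain and midbrain list was called. Other genes of the forebrain and midbrain list were not raised in WT clutch 13. *foxg1a* was lowest there, at 0.116 FPKM, against 0.401 and 0.455 FPKM in WT clutches 12 and 15. *emx1* and *emx3* lay between the other WT pools. WT clutch 13 also had the highest *pde6c* and *saga*, and the part of brain or eye tissue in it was not tested. Without it, the log2 fold changes were 0.91 for *gnat2*, 0.94 for *opn1sw2* and −0.04 for *pde6c*, and none of the 3 was called by limma. By comparison, 14 muscle and other trunk and tail genes summed to 30227 to 32898 FPKM in mutants and 25343 to 28765 FPKM in WT, with all 14 above 0 in every pool, led by the fast muscle myosin light chain genes *mylpfa* and *mylz3*.

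**Figure D4:**
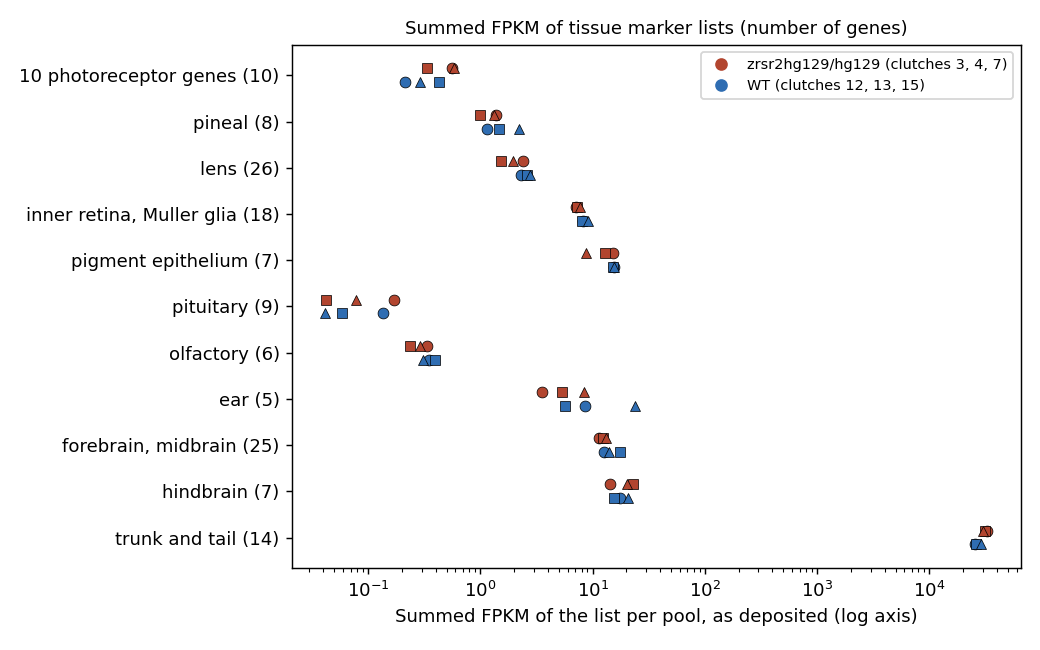
Summed FPKM per pool of the 10 photoreceptor genes and of marker lists of other tissues (the number of genes in parentheses), on a log axis, with circle, square and triangle for clutches 3, 4 and 7 of zrsr2hg129/hg129 (upper row of each list) and clutches 12, 13 and 15 of WT (lower row). The 10 photoreceptor genes lie between 0.211 and 0.581 FPKM, below the pineal and lens lists, and the 14 trunk and tail genes lie between 25343 and 32898 FPKM.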

How the data were processed

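For each of the 6 pools, the authors aligned stranded total RNA reads with HISAT2 2.2.1.0 (genome GRCz11) and assembled transcripts with StringTie 2.0.3, per the labels and their methods. They deposited, for each pool, the FPKM and the coverage of every transcript, and no read counts. Gene values were FPKM sums over the transcripts that carry a gene's name. Pools were scaled by median-of-ratios factors for the tests, for the likeness between genes and for values said to be scaled. Other FPKM values are as deposited. limma 3.58.1 (R 4.3.3; eBayes with a mean trend, two-sided) was fitted to log2(FPKM + 0.1) of 19978 genes with a mean of at least 0.1 FPKM, with Benjamini-Hochberg adjustment over all of them and a gene was called where its adjusted p was under 0.05 and its log2 fold change 1 or more in size. The deposited coverage multiplied by transcript length gave aligned bases, and reads were estimated at an assumed 150 bases; these floors cover counting error only. The fit was tested on simulated data. Each pool was left out in turn, and the pseudocount, filter, scaling, test and transcript set were varied.

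The members and lists were chosen with earlier results of these data known. Named beside the 10 genes were their copies, *zrsr2*, called genes of each list, the 3 highest genes of each photoreceptor list and 2 of each head list, and the 5 genes most like them across pools. Genes chosen otherwise are said to be so. Named transcripts carry Ensembl identifiers. No sequence was printed, since the tables used here hold none.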

Additional observations from a re-analysis of the deposited data

How the results depend on the processing

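None of the 10 genes was called under any of the 15 alternatives, but most of these tested only *opn1sw2*, *gnat2* and *pde6c*. Without a filter 7 of the 10 were tested. *opn1sw1*, *opn1lw2* and *arr3a*, listed at 0 in every pool, could not be called under any. At the levels of the 10 genes a log2 fold change of 1 is out of reach with a pseudocount of 1, so that setting cannot decide their calls. The log2 fold change of *gnat2* ran between 0.17 and 1.64 (adjusted p 0.0786 to 0.255), that of *opn1sw2* between 0.18 and 1.37 (0.116 to 0.513) and that of *pde6c* between −0.41 and −0.03 (0.554 to 0.968), by limma on log2 FPKM or limma-voom, which gave 1.64, 1.37 and −0.41 for the 3 genes. A minimum mean of 1 FPKM left none of the 10 to test. The difference in their summed scaled FPKM, 0.254, was 0.112 without *opn1sw2*, and 0.192 to 0.350 with 1 pool left out. Among the other photoreceptor genes, the 1 call higher became 0 with a pseudocount of 1, 0 with a minimum mean of 1 FPKM, and 0 whichever pool was left out. That gene, *grk7b*, failed on size alone with a pseudocount of 1 and was not tested under the minimum mean of 1 FPKM. Of the head markers, 2 were called lower, against 0 with a pseudocount of 1, 1 without a filter, 1 with a minimum mean of 1 FPKM, 1 with limma-voom, 4 with unnamed transcripts added, and 0 to 1 with 1 pool left out. Over all genes, the 177 higher calls became 73 with a pseudocount of 1, 115 with limma-voom, 337 with unnamed transcripts added, 392 with whole loci summed, and 28 to 184 with 1 pool left out. The 382 lower calls became 212 with a pseudocount of 1, 773 without scaling (beside 132 higher), 661 with whole loci summed, and 63 to 323 with 1 pool left out. Without scaling, the median over all genes tested was −0.19 on the log2 scale. Signs turned for *sagb* (0.15 without WT clutch 15, −0.90 to 0.15 with 1 pool left out), *abca4a* (−0.080 without scaling, −0.0099 without mutant clutch 7, −0.050 to 0.21 with 1 pool left out, the lowest without WT clutch 13) and *rgrb* (−0.17 without scaling, −0.19 without mutant clutch 3, −0.19 to 0.32 with 1 pool left out). The log2 fold change of *arr3b* was −0.96 with unnamed transcripts added and −0.96 with whole loci summed. The causes were not tested. Total calls were 91 and 100 without WT clutch 12 or 13, against 559. No paired analysis was possible because the 2 genotypes share no clutch number. Among the 10 genes, 1 read of 150 bases would give 0.00296 FPKM (*pde6c*, lowest pool) to 0.0117 FPKM (*opn1sw2*, highest pool). The absence of a gene cannot be told from a level of a few reads.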

Other observations

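Markers of head tissues away from the eye were also measured in the headless bodies, though many of them are used elsewhere in the body and their source was not tested. The forebrain and midbrain list (25 genes) summed to 11.4 to 13.2 FPKM in mutants and 12.6 to 17.6 FPKM in WT, led by *emx2* (2.91 ± 0.312 FPKM in mutants and 2.82 ± 0.429 FPKM in WT, SD, n = 3 each), a transcription factor that is also used in the kidney, and by *barhl2* (2.63 ± 0.122 FPKM in mutants and 2.12 ± 0.323 FPKM in WT), a transcription factor of neurons. The pituitary list (9 genes) summed to 0.0418 to 0.169 FPKM in mutants and 0.0417 to 0.137 FPKM in WT, with no gene above the filter. Its highest genes were *pomca* (0.0355, 0.0418 and 0 FPKM in mutants and 0.0402, 0.0582 and 0.0241 FPKM in WT) and *tshba*, which was above 0 only in mutant clutch 3, at 0.133 FPKM. In every pool, this sum was lower than that of the 10 photoreceptor genes. Olfactory genes summed to 0.238 to 0.336 FPKM in mutants and 0.311 to 0.394 FPKM in WT. The highest gene, *s100z*, averaged 0.259 ± 0.0501 FPKM in mutants and 0.182 ± 0.0551 FPKM in WT (log2 fold change 0.51, adjusted p = 0.293 by limma). *ompa*, a marker of olfactory neurons, lay the other way and was listed at 0 in the 3 mutant pools and had 0.136, 0.104 and 0.0276 FPKM in WT clutches 12, 13 and 15. Of all genes tested, 26.8% had every mutant pool lower, but *ompa* was under the filter and was not tested.

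Ear genes varied most between pools. Their sum was 3.56, 5.39 and 8.46 FPKM in mutant clutches 3, 4 and 7, against 8.51, 5.71 and 24.0 FPKM in WT clutches 12, 13 and 15, led by the otolith genes *stm* (adjusted p = 0.671 by limma) and *otomp* (adjusted p = 0.633). WT clutch 15, highest here, was also the pool with the highest *sagb* and *asmt2*. The hindbrain list (7 genes) summed to 14.4 to 22.9 FPKM in mutants and 15.6 to 20.8 FPKM in WT, led by *hoxb3a* (7.97 ± 2.46 FPKM in mutants and 6.497 ± 1.901 FPKM in WT) and *phox2bb* (3.73 ± 0.961 FPKM in mutants and 3.28 ± 0.392 FPKM in WT).

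Likeness across the 6 pools was taken on scaled log2(FPKM + 0.1) values. The genes most like the mean of *opn1sw2*, *gnat2* and *pde6c* were *skp1* (Pearson's r 0.993), NC_002333.9 (0.991), *dclre1b* (0.989), *rab5aa* (0.982) and FP015808.1 (0.982). In all, 211 genes had an r over 0.9. The 6 points share library, depth and genotype, and these values are a description with no test. None of these genes is in the lists of eye genes used here. FP015808.1 had 0.511, 0.226 and 0.455 FPKM in mutant clutches 3, 4 and 7, against 0.0537, 0.233 and 0.0984 FPKM in WT clutches 12, 13 and 15.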
